A study of Rattus norvegicus with 8 samples.

Results

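The transcripts described here encode 7 enzymes and regulators through which the liver takes glucose and fructose into glycolysis: Gckr, Khk, Pfkfb1, Pfkfb3, Pfkl, Pklr and Ldha. They were chosen by gene name, with earlier results of these data known. Every probe set whose annotation gave 1 of these symbols and no other was taken, which gave 7 of 14217 named genes and 10 of the 31042 probe sets tested: 3 for Pfkfb3, 2 for Pklr and 1 for each of the other genes. All 10 were tested, since no filter on dim signals was applied. A gene with several probe sets was counted once, by its brightest.

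The livers came from male Sprague-Dawley rats of 180 to 200 g. One group received dexamethasone, a synthetic glucocorticoid, at 1.5 mg/kg into muscle together with the AMPK activator AICAR, a nucleoside that cells turn into an AMP mimic, at 0.7 g/kg into the peritoneum. The other groups received dexamethasone alone, AICAR alone, or vehicle (saline by both routes). The 4 groups held 2 arrays each, and the livers were taken after 8 h. The labels do not say whether arrays within a group stand for different rats, so the p-values reflect array-to-array spread, which may be technical.

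Glycolysis in liver is controlled at a few steps. Glucokinase, which traps glucose, is held inactive by the protein that Gckr encodes, and phosphofructokinase is switched on by a sugar bisphosphate that the bifunctional Pfkfb enzymes make and break down. Pyruvate kinase closes the pathway, lactate dehydrogenase interconverts pyruvate and lactate, and fructose enters below phosphofructokinase once ketohexokinase has phosphorylated it. Glucocorticoids are known for raising hepatic glucose output, and the carbohydrate-responsive factor ChREBP for driving the liver pyruvate kinase gene.

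The promoters of Pklr, Gckr and Khk are shown because these genes fell together under the combined treatment, and that of Pfkfb1 because it is the gene of the 7 that rose most. The sequences are RefSeq's on rat assembly GRCr8, in windows of 300 bases that end 50 bases past the start, and all 7 genes matched an entry. Capitals mark matches, on either strand, to any of 5 motifs. These were the carbohydrate response element (CACGNG, any 5 bases, then CNCGTG), the E-box CACGTG, the glucocorticoid receptor core AGAACA, the full receptor element (AGAACA, any 3 bases, then TGTTCT), which contains that core, and the HNF1 site (GTTA, any 5 bases, then TAAC).
Pklr, chr2:176841014-176841313, plus strand: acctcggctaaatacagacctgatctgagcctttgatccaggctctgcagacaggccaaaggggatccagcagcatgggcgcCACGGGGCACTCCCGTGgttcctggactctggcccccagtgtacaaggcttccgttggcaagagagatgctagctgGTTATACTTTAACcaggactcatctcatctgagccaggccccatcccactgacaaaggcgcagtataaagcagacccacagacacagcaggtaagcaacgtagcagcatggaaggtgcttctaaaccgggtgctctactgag
Gckr, chr6:30795578-30795877, minus strand: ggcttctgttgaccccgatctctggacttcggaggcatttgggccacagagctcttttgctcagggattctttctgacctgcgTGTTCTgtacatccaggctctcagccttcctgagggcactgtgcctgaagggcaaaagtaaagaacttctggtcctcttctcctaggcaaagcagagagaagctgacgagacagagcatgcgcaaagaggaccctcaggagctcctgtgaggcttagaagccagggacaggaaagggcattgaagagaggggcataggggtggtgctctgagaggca
Khk, chr6:31175432-31175731, minus strand: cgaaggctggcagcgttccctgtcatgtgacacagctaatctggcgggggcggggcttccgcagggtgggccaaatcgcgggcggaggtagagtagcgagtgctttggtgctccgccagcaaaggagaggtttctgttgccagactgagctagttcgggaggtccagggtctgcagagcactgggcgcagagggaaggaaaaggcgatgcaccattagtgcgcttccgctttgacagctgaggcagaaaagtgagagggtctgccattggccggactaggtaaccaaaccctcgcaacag
Pfkfb1, chrX:22941926-22942225, plus strand: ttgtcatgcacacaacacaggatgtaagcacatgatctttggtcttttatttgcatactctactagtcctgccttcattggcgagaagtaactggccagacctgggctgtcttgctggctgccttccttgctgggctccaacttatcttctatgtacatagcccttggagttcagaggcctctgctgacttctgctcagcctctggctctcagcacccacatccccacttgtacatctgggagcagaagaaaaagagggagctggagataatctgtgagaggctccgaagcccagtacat

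The Pklr window held the carbohydrate response element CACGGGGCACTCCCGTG at bases -168 to -152 from the start and the HNF1 match GTTATACTTTAAC at -92 to -80. The first motif occurred in 0.0329% of 33469 rat promoter windows of the same length and the HNF1 motif in 0.248%. Gckr held the receptor core once, as TGTTCT at -167 to -162, a motif found in 20.7% of windows. The full receptor element, found in 0.0149% of windows, was in none of the 7. The E-box was in the windows of Ldha and Pfkfb3, which are not shown, and in 6.42% of all windows. No motif was matched in the windows of Khk and Pfkfb1. These matches describe letters only, and binding was not measured.

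The array medians lay between 5.22 and 5.27 on the log2 scale, with correlations over probe sets of 0.997 to 0.998 inside a group. Between arrays of different groups they were 0.979 to 0.993. Hepatocyte markers were bright: the mean of 7 of them was 13.99 on both combination arrays, 13.96 to 13.97 after dexamethasone, 13.92 after AICAR and 13.98 in vehicle. The mean of 9 Kupffer cell and macrophage markers was 4.10 to 4.17 after both agents, 7.35 to 7.505 after dexamethasone, 8.74 to 8.745 after AICAR and 8.57 to 8.585 in vehicle. The 9 stellate cell and fibroblast markers averaged 7.24 to 7.255 after both agents, 7.225 to 7.25 after dexamethasone, 7.68 to 7.71 after AICAR and 7.16 in vehicle. Of these 9, 3 were higher and 3 lower in the combination than in vehicle, and 5 had a called negative interaction with none positive. The 9 lymphocyte and leukocyte markers averaged 4.58 to 4.60 after both agents, 4.74 to 4.84 after dexamethasone, 5.08 to 5.16 after AICAR and 5.35 to 5.37 in vehicle. Of these, 6 were lower and none higher in the combination than in vehicle, and 1 had a positive and 1 a negative called interaction. The 7 sinusoidal endothelial markers averaged 7.955 to 7.96 after both agents and 7.90 to 7.975 after dexamethasone. They averaged 8.33 to 8.36 after AICAR and 8.415 to 8.48 in vehicle. Of these 7, 4 were lower and none higher in the combination than in vehicle, and 2 had a positive and 2 a negative called interaction. Of all probe sets, 26.9% were called for the combination against vehicle (13.3% higher, 13.6% lower). The share for the interaction was 15.6% (8.63% higher, 7.02% lower). In the combination 4 of the 9 Kupffer cell markers, among them the defining marker Cd5l, were below 3.84, the lowest lower quartile of any array. The 3′ to 5′ difference of the actin control, a measure of RNA quality, averaged 1.80 after both agents, 2.04 after dexamethasone, 1.82 after AICAR and 2.23 in vehicle. For the GAPDH control it averaged 0.33 after both agents, 0.42 after dexamethasone, 0.39 after AICAR and 0.61 in vehicle. The part of these cell types and of RNA quality in the values below was not tested. In whole liver, fewer cells of a type and less RNA per cell cannot be told apart.

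Gckr and Khk, which act where glucose and fructose enter, were lower in the combination than in every other group and near vehicle after either agent alone. Gckr had log2 values of 9.42 and 9.31 after both agents, 10.55 and 10.68 after dexamethasone, 10.48 and 10.51 after AICAR, and 10.47 and 10.54 in vehicle. Both combination arrays lay about 1 unit under the other 6, and the AICAR and vehicle values overlapped. Khk, for ketohexokinase, had 9.87 and 9.80 after both agents, 10.42 and 10.54 after dexamethasone, 10.36 and 10.44 after AICAR, and 10.48 and 10.41 in vehicle. Again only the combination stood apart, and the other 3 groups overlapped each other.

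Against vehicle, the combination lowered Gckr by a log2 difference of -1.14 ± 0.08 (2.20-fold; limma adjusted p = 1.7e-05) and Khk by -0.61 ± 0.08 (1.53-fold; limma adjusted p = 5.27e-04). Values after ± are standard errors from limma, with n = 2 arrays a group, unless SD is named. Dexamethasone alone gave Gckr a difference of 0.11 with a 95% interval of -0.07 to 0.29, and Khk 0.04 with an interval of -0.14 to 0.22. AICAR alone gave -0.01 for Gckr (-0.19 to 0.17) and -0.05 for Khk (-0.23 to 0.13). None of these 4 single-agent differences passed, and their intervals exclude falls as large as those under the combination.

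**Figure D1:**
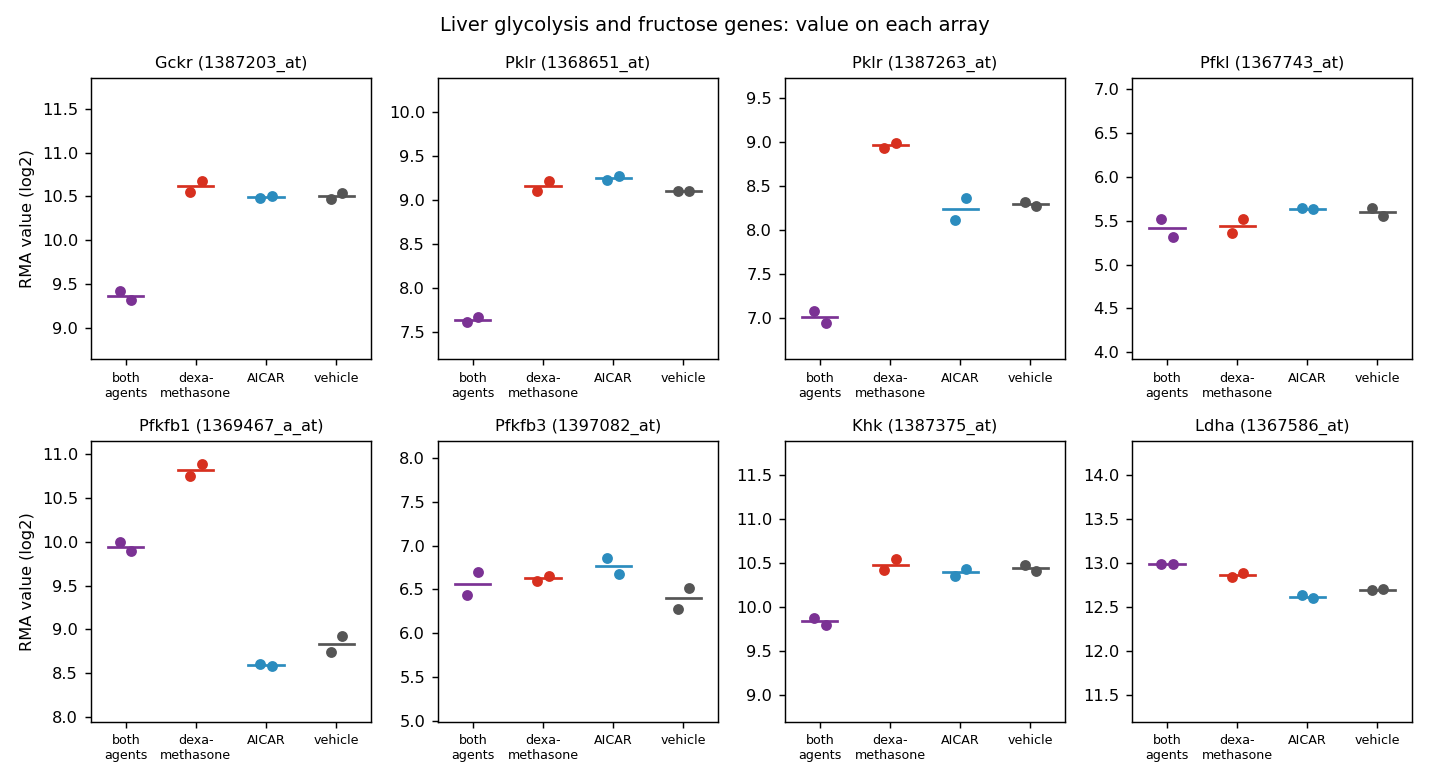
RMA values (log2, vertical axis) of the 7 genes on each array, by group along the horizontal axis, with both probe sets of Pklr and the probe set of highest mean for the others. Points are arrays, lines are group means, and every panel spans the same range; Gckr, Khk and both Pklr probe sets are lowest in the combination, and Pfkfb1 is highest after dexamethasone.

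Among the controllers of phosphofructokinase, Pfkfb1 moved and Pfkfb3 did not pass in any comparison. Pfkfb1, the liver isoform of the bifunctional enzyme, had log2 values of 10.001 and 9.89 after both agents, 10.75 and 10.89 after dexamethasone, 8.61 and 8.58 after AICAR, and 8.74 and 8.92 in vehicle. No 2 groups overlapped, and the order ran upwards through AICAR, vehicle, the combination and dexamethasone. The step between AICAR and vehicle was the only one of these neighbours that did not pass (-0.24 ± 0.09, limma adjusted p = 0.131).

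Dexamethasone raised Pfkfb1 by 1.99 ± 0.09 over vehicle, or 3.97-fold (limma adjusted p = 2.69e-06). With AICAR added the gene was still above vehicle, by 1.11 ± 0.09 (2.17-fold; limma adjusted p = 4.09e-05), but it was 0.87 ± 0.09 lower than with dexamethasone alone, a log2 difference of -0.87 (limma adjusted p = 2.74e-04). Against AICAR alone the combination was higher by 1.35 ± 0.09 (limma adjusted p = 1.34e-05).

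Pfkfb3, an isoform with high activity in making the activator, was read by 3 probe sets. The brightest, 1397082_at, had 6.44 and 6.70 after both agents, 6.60 and 6.65 after dexamethasone, 6.86 and 6.68 after AICAR, and 6.28 and 6.52 in vehicle. The combination overlapped every other group on it. Its largest difference between groups was AICAR over vehicle, 0.37 ± 0.12, with limma adjusted p = 0.0773. The other probe sets gave -0.21 ± 0.14 and -0.14 ± 0.13 for that comparison, so the 3 did not share a sign. Probe set 1390391_at read 4.68 and 4.73 after both agents, 4.34 and 4.32 after dexamethasone, 4.39 and 4.45 after AICAR, and 4.39 and 4.88 in vehicle. The 2 vehicle arrays stood farther apart than the means of any 2 groups, and its result turned on them. Without vehicle replicate 1 it was called lower after dexamethasone (-0.55, limma adjusted p = 0.00729) and after AICAR (-0.46, limma adjusted p = 0.0306), while without vehicle replicate 2 it was called higher in the combination (0.31, limma adjusted p = 0.0452). Probe set 1369794_a_at lay between 3.64 and 3.99 on all arrays, near the lower quartile of 3.84, where RMA compresses differences.

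Pfkl, the liver subunit of phosphofructokinase itself, had 5.52 and 5.32 after both agents, 5.36 and 5.52 after dexamethasone, 5.64 and 5.63 after AICAR, and 5.64 and 5.55 in vehicle. The combination overlapped dexamethasone and AICAR overlapped vehicle, and the group means spanned 0.22. None of its 6 comparisons passed, and its difference for both agents against vehicle was -0.17, with an interval of -0.39 to 0.04. All its values, 5.32 to 5.64, lay just above the array medians of 5.22 to 5.27. RMA compresses differences of dim probe sets, and whether it did so here was not tested.

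Pklr, for the pyruvate kinase of liver and red cells, showed the deepest fall of the 7 genes under the combination. On probe set 1368651_at the log2 values were 7.61 and 7.67 after both agents, 9.10 and 9.21 after dexamethasone, 9.23 and 9.27 after AICAR, and 9.10 and 9.11 in vehicle. On probe set 1387263_at they were 7.08 and 6.94 after both agents, 8.94 and 8.99 after dexamethasone, 8.11 and 8.36 after AICAR, and 8.32 and 8.27 in vehicle. Both probe sets put the combination more than 1 unit below all other arrays. They parted after dexamethasone alone, where the second stood above vehicle and the first overlapped it. Red cells also carry Pklr transcripts: the mean of 5 erythroid markers was 7.56 on both combination arrays, 7.425 to 7.49 after dexamethasone, 7.95 to 7.99 after AICAR and 7.99 to 8.02 in vehicle. Of these markers 3 were lower and none higher in the combination than in vehicle, where 13.6% of all probe sets were called lower. A called interaction was positive for 1 and negative for 1, where 15.6% of all probe sets were called. The part of red cell RNA in the Pklr values was not tested.

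The combination lowered Pklr against vehicle by -1.47 ± 0.07 on the first probe set (2.76-fold; limma adjusted p = 2.37e-06) and by -1.28 ± 0.10 on the second (2.43-fold; limma adjusted p = 2.75e-05). Against dexamethasone the differences were -1.52 ± 0.07 and -1.95 ± 0.10, and against AICAR they were -1.61 ± 0.07 and -1.23 ± 0.10. For dexamethasone over vehicle the first probe set gave 0.05 ± 0.07 (limma adjusted p = 0.701) and the second 0.67 ± 0.10 (limma adjusted p = 0.00174). The mean of the 2 probe sets gave 0.36 with limma adjusted p = 0.0108, so whether Pklr rises after dexamethasone depends on the probe set read. The difference between the probe sets was not tested.

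Ldha, for the A subunit of lactate dehydrogenase, went the opposite way by a small amount. It had 12.99 on both arrays after both agents, 12.84 and 12.89 after dexamethasone, 12.63 and 12.60 after AICAR, and 12.69 and 12.70 in vehicle. The groups did not overlap, and the combination was highest. The combination exceeded AICAR by 0.37 ± 0.07 (1.29-fold; limma adjusted p = 0.00348). It exceeded vehicle by 0.29 ± 0.07 (1.22-fold; limma adjusted p = 0.0132). That second call was lost without either combination array (limma adjusted p = 0.0705 without replicate 1 and 0.0704 without replicate 2) and without either vehicle array (0.0587 and 0.0518). Dexamethasone over vehicle, at 0.17 ± 0.07, did not pass (limma adjusted p = 0.129).

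Counted over the 7 genes, the shares called can be set beside those of the whole table. Since the genes were chosen with earlier results of these data known, these shares do not test the set. After dexamethasone alone 1 gene was higher, Pfkfb1, and none lower, where 18.4% of all probe sets were called (8.67% higher, 9.77% lower). After AICAR alone limma called 0 of 7, where 12.9% of probe sets were called (5.45% higher, 7.47% lower). At an unadjusted p under 0.05 the AICAR count was 2, Pfkfb1 lower and Pfkfb3 higher, and both were called when limma's prior followed the signal level and was robust. Under the combination against vehicle 5 of 7 were called, Pfkfb1 and Ldha higher and Gckr, Khk and Pklr lower, where 26.9% of probe sets were called (13.3% higher, 13.6% lower). The median of the 7 genes was -0.17, against -0.0059 over all genes.

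The combination against dexamethasone gave 4 of 7 lower, Gckr, Khk, Pfkfb1 and Pklr, and none higher, where 20.1% of probe sets were called (10.2% higher, 9.91% lower). The median was -0.65, against 0.015 over all genes. Against AICAR 5 of 7 were called, Pfkfb1 and Ldha higher and Gckr, Khk and Pklr lower, where 30.8% of probe sets were called (15.9% higher, 14.9% lower). The combination against vehicle shares its arrays with both of these comparisons. The balance of all higher and lower calls depended on scaling. With each array centred on its brighter probe sets, 57.6% of calls after dexamethasone were higher, as against 47.0% as deposited. After AICAR the shares were 56.1% and 42.2%, and for the interaction 44.0% and 55.1%.

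**Figure D2:**
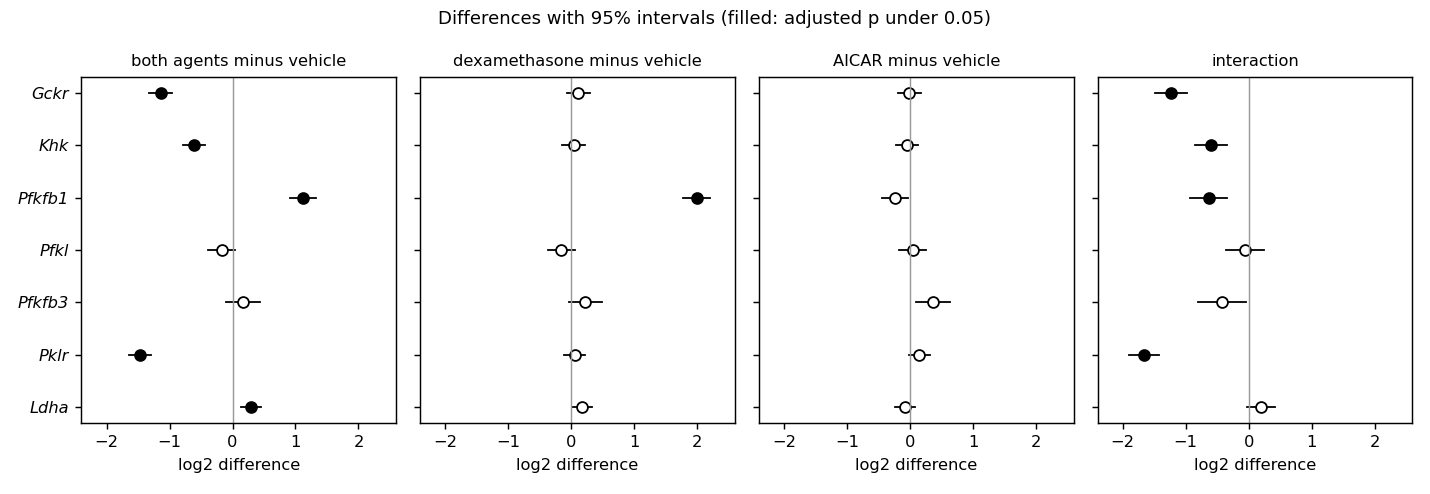
Log2 differences (horizontal axis) of the 7 genes (rows, probe set of highest mean) for the combination, dexamethasone and AICAR against vehicle, and the interaction. Points are limma estimates, bars 95% intervals, and filled points passed an adjusted p of 0.05; Gckr, Khk and Pklr are filled on the negative side for the combination and the interaction, with open points near 0 for each agent alone.

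The interaction asks whether the dexamethasone effect was the same with and without AICAR. It was lower with AICAR for 4 of 7 genes and higher for none, where 15.6% of probe sets were called (8.63% higher, 7.02% lower). The median of the 7 was -0.60, against 0.014 over all genes. Pklr had interactions of -1.67 ± 0.11 and -1.90 ± 0.14 on its 2 probe sets (limma adjusted p = 3e-05 and 6.81e-05), Gckr -1.23 ± 0.11 (limma adjusted p = 2.49e-04) and Khk -0.60 ± 0.11 (limma adjusted p = 0.00829). Pfkfb1 had -0.64 ± 0.13 (limma adjusted p = 0.0119), which without combination replicate 2 became -0.58 and missed the threshold (limma adjusted p = 0.0504). Pfkl and Ldha did not pass, at -0.06 ± 0.13 and 0.20 ± 0.10. Nor did any probe set of Pfkfb3, whose interactions differed in sign: -0.43 ± 0.17 on 1397082_at, 0.59 ± 0.19 on 1390391_at and 0.30 ± 0.18 on 1369794_a_at, and 0.15 for their mean. Under limma's trended and robust prior Ldha was called higher for the interaction (limma adjusted p = 0.00159) and against dexamethasone (0.12, limma adjusted p = 0.00534), so the absence of higher calls in these 2 comparisons depended on the prior. That prior also called the Pfkfb3 interactions on 1397082_at and 1390391_at (limma adjusted p = 0.0475 and 0.0374), in opposite directions.

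The same result can be read as a sum. For Pklr on its brighter probe set the single-agent differences from vehicle added to 0.20, and the combination measured -1.47. For Gckr they added to 0.10 and the combination measured -1.14, and for Khk they added to -0.01 and the combination measured -0.61. For Pfkfb1 they added to 1.75 and the combination measured 1.11. The combination was thus below vehicle for Pklr, Gckr and Khk, where the sums lay at or above it, and above vehicle for Pfkfb1, as its sum was.

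**Figure D3:**
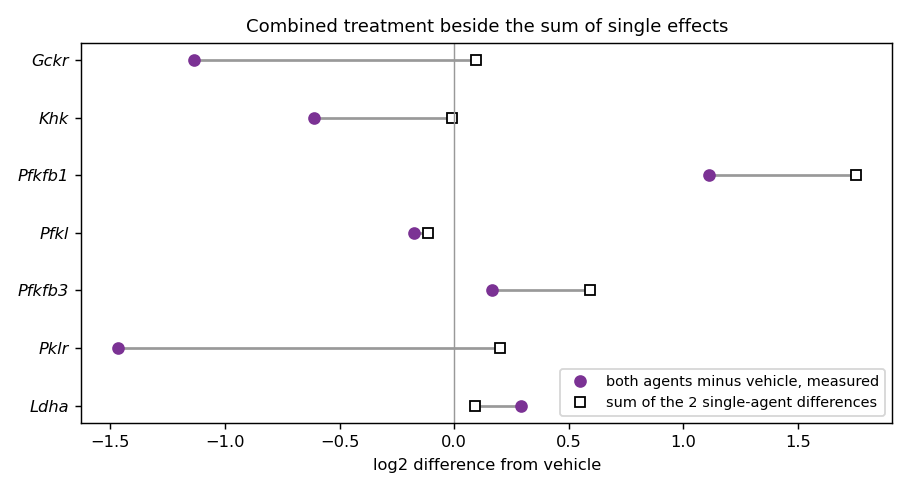
Log2 difference from vehicle (horizontal axis) for the 7 genes (rows): filled circles are the measured combination, open squares the sum of the 2 single-agent differences, and the line between them is the interaction. The line is longest for Pklr (0.20 against -1.47) and Gckr (0.10 against -1.14).

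For the genes whose group means spanned 1 unit or more, the most similar profiles were sought over the 8 arrays among 14217 genes. Likeness was the mean absolute difference of log2 values after centring each gene. Nearest to Gckr were Car5a, a mitochondrial carbonic anhydrase gene (0.0318), Fah, for the last enzyme of tyrosine breakdown (0.0375), and Slc46a3 (0.0722). The combination's difference from vehicle was -1.11 for Car5a and -1.03 for Fah. Nearest to Pklr on 1368651_at, its brighter probe set, were Epha3 (0.108), Slc35d2 (0.117) and Oaf (0.119). No search was made for its other probe set, which differed after dexamethasone. Nearest to Pfkfb1 were the alanine transaminase gene Gpt (0.111), Rasgef1b (0.13) and Ifi44 (0.153). Gpt differed from vehicle by 1.33 after both agents, 1.97 after dexamethasone and -0.32 after AICAR.

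Of 18 measured genes of the other glycolytic steps, 4 rose and 2 fell under the combination against vehicle, with a median of 0.069. These 6 of 18 stand near the 26.9% of all probe sets called, so the count says nothing particular of the list. The triose phosphate isomerase gene Tpi1 rose by 0.73 ± 0.07 (limma adjusted p = 1.07e-04), Pgam1, for phosphoglycerate mutase, by 0.62 ± 0.07 and the enolase gene Eno1 by 0.60 ± 0.08, while Bpgm, for bisphosphoglycerate mutase, fell by 0.80 ± 0.08. The count of falls was 1 without either combination array or without vehicle replicate 1. After dexamethasone alone 5 rose and 2 fell (1 without dexamethasone replicate 1 or vehicle replicate 2), with Eno1 at 0.77 ± 0.08 and the glucose phosphate isomerase gene Gpi at 0.62 ± 0.08. The share of all probe sets called was 18.4% after dexamethasone (8.67% higher, 9.77% lower). It was 12.9% after AICAR (5.45% higher, 7.47% lower). After AICAR alone 5 rose and none fell, with Gpi at 0.51 ± 0.08. That count was 3 and 2 without AICAR replicate 1 and 2, and 1 and 2 without vehicle replicate 1 and 2.

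Against dexamethasone, 1 of these glycolytic genes was higher in the combination and 1 lower, where 20.1% of all probe sets were called. The higher one was Tpi1, whose call was lost without either combination array or dexamethasone replicate 1. The lower one was Gpi (-0.56 ± 0.08, limma adjusted p = 0.00196), with an interaction of -1.07 ± 0.12. Against AICAR 2 of 18 were higher and 5 lower, where 30.8% of all probe sets were called. Of 18 interactions 3 were called, all negative, which is near the 15.6% of all probe sets, and 2 were left without any 1 of the arrays other than dexamethasone replicate 1.

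Among genes of fructose and polyol handling, 3 of 7 measured rose and 2 fell after dexamethasone, where 18.4% of all probe sets were called. The fructose transporter gene Slc2a5 rose by 1.44 ± 0.12 (limma adjusted p = 7.23e-05), and Tkfc, for the kinase that acts on glyceraldehyde from fructose, by 0.84 ± 0.07. After AICAR 1 rose, which was Tkfc, and its call was lost without any 1 of the AICAR or vehicle arrays. The share of all probe sets called after AICAR was 12.9%. After both agents 2 rose and 1 fell against vehicle, where 26.9% of all probe sets were called. The rises, in Slc2a5 and Tkfc, were both lost without combination replicate 1, and 1 was left without combination replicate 2 or either vehicle array.

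Set against dexamethasone alone, the combination was lower for 4 of these 7 and higher for 1, where 20.1% of all probe sets were called. The log2 difference was -0.88 ± 0.12 for Slc2a5 and -0.57 ± 0.07 for Tkfc. With probe sets averaged per gene, 2 were lower. For the combination against AICAR 30.8% of all probe sets were called. Against AICAR 1 was higher and 2 lower, and leaving out 1 array left 0 to 1 higher and 1 to 2 lower. The interactions of Slc2a5 and Tkfc were -1.05 ± 0.17 and -0.86 ± 0.10, and 4 of 7 on the list had a called negative interaction with none positive, where 7.02% of all probe sets were called lower. Akr1b1, for aldose reductase, differed from vehicle by -0.98 ± 0.09 after both agents and by -0.54 ± 0.09 after dexamethasone.

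**Figure D4:**
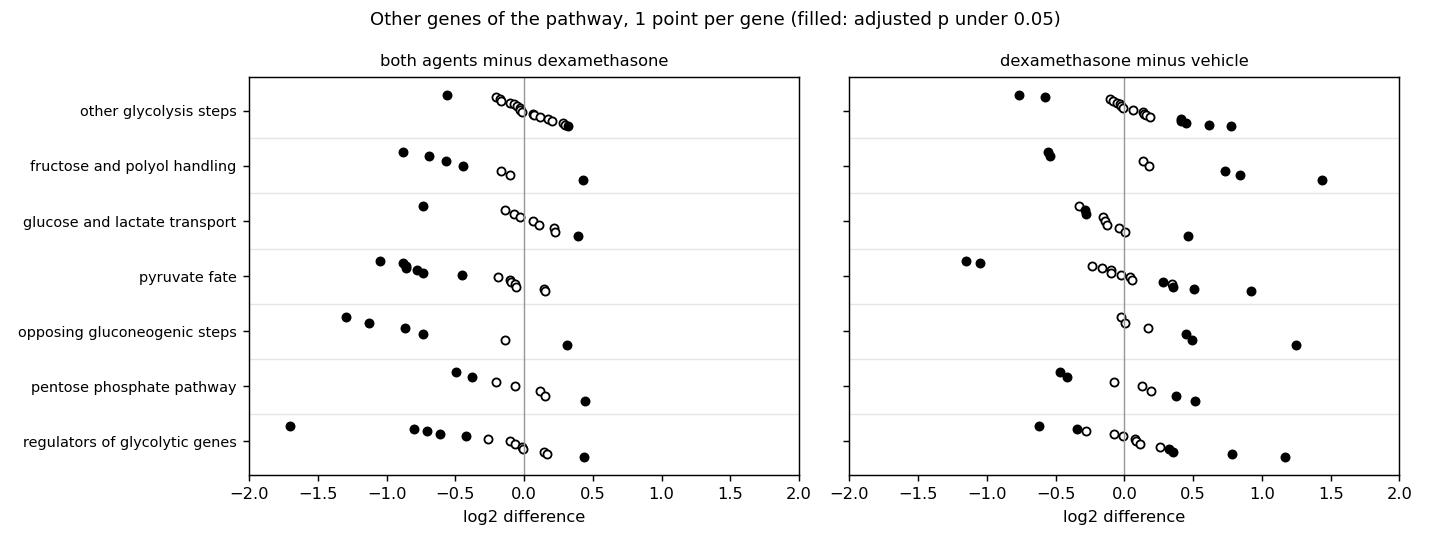
Log2 differences (horizontal axis) of other genes on 7 lists around the pathway (rows), 1 point per gene, for the combination minus dexamethasone (left) and dexamethasone minus vehicle (right). Filled points passed an adjusted p of 0.05; pyruvate fate has 7 filled points below 0 and none above on the left.

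Of 14 measured genes that set the fate of pyruvate, 7 were lower and none higher in the combination than after dexamethasone, where 9.91% of all probe sets were called lower and 10.2% higher. The list's median was -0.32. The pyruvate dehydrogenase kinase gene Pdk4, which encodes a brake on pyruvate oxidation, differed by -1.05 ± 0.08, Pdk2 by -0.86 ± 0.07 and Pdk1 by -0.88 ± 0.09. Pdhb, for a subunit of the dehydrogenase itself, differed by -0.78 ± 0.07. Of the list's interactions, 7 were called and negative and none positive, where 7.02% of all probe sets were called lower. Pdk4 was below vehicle in each treated group, at -2.20 ± 0.08 after both agents, -1.15 ± 0.08 after dexamethasone and -0.57 ± 0.08 after AICAR. The malic enzyme gene Me1 was -1.50 ± 0.07 after both agents and -1.05 ± 0.07 after dexamethasone.

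The gluconeogenic genes that oppose glycolysis included some that fell together with Pklr. Of 6 measured, 2 rose and 3 fell after both agents against vehicle, where 26.9% of all probe sets were called (1 rose without either combination array or vehicle replicate 1). Fbp1, for fructose bisphosphatase, differed by -0.80 ± 0.07 and Pck1, for the cytosolic phosphoenolpyruvate carboxykinase, by -0.68 ± 0.07. Pc differed by -0.76 ± 0.08, while Slc37a4 went the other way, at 0.38 ± 0.07. After dexamethasone 3 rose and none fell, where 18.4% of all probe sets were called. Fbp1 then differed from vehicle by 0.49 ± 0.07, Pck1 by 0.45 ± 0.07 and Slc37a4 by 1.25 ± 0.07. Of the 6, 4 had a called negative interaction and none a positive one, where 7.02% of all probe sets were called lower. These 4 include Pc, which is also on the pyruvate list and among its 7 negative interactions.

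Among regulators of glycolytic genes, Mlxipl, which encodes ChREBP, had differences from vehicle of -0.01 ± 0.11 after both agents, 0.26 ± 0.11 after dexamethasone and -0.17 ± 0.11 after AICAR, and none of its 6 comparisons passed. Without dexamethasone replicate 1 its difference after dexamethasone was called. Its partner gene Mlx rose by 0.79 ± 0.08 after both agents. Txnip, a gene known to respond to glucose through ChREBP, was -1.23 ± 0.08 after both agents and -0.62 ± 0.08 after dexamethasone. Onecut1, for a hepatocyte transcription factor, was -0.92 ± 0.09 after both agents, 0.78 ± 0.09 after dexamethasone and -1.84 ± 0.09 after AICAR. The share of all probe sets called was 18.4% after dexamethasone and 12.9% after AICAR. Of 13 measured regulators 2 rose and 6 fell after both agents, with 26.9% of all probe sets called, and the falls were 4 without combination replicate 1 and 3 without combination replicate 2 or vehicle replicate 2. After dexamethasone 4 rose and 2 fell, where the rises were 2 without dexamethasone replicate 2 or vehicle replicate 2, and the falls were 1 without dexamethasone replicate 1 or either vehicle array. After AICAR 2 fell, Onecut1 and Txnip, and the Txnip call was lost without either AICAR array or vehicle replicate 2.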

How the data were processed

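Liver RNA was hybridised to an Affymetrix rat expression array. The authors deposited 1 log2 value per probe set and array, for which the submitters' processing notes name affy and RMA; versions and the base of the logarithm are not given in the sources used here, and log2 was read from the range of the values. RMA gives no detection call and compresses differences of dim probe sets. The 57 array controls were kept out of tests. Symbols came from the platform annotation (20826 probe sets with 1 symbol, 436 with several, 9780 with none), updated by gene ID.

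Groups were compared with limma 3.58.1 in R 4.3.3 over all 8 arrays (4 residual and 4.58 prior degrees of freedom), with Benjamini-Hochberg adjustment over 31042 probe sets and a call threshold of 0.05 on the adjusted p. Exact permutation of 2 against 2 arrays has 0.333 as its smallest two-sided p and was not run. The number of arrays limits the precision. The code was tested on simulated data. The genes and lists were chosen with earlier results of these data known. The naming rule gave all probe sets of the 7 genes, and from each list up to 4 called genes with the smallest p, from which the text gives examples, plus a panel; genes without a probe set of their own are not reported. Alternatives were cyclic loess, centring, a filter on dim probe sets, another prior, fewer groups in the fit, a replicate block, gene means and leaving out each array. Replicate numbers did not pair the arrays: deviations of same-numbered arrays correlated between -0.0418 and 0.16.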

Additional observations from a re-analysis of the deposited data

Results flagged for a closer look

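The effect of dexamethasone differed with and without AICAR, by the interaction term in limma, for 5 of the 10 probe sets. These 5 read 4 of the 7 genes, and 15.6% of all probe sets were called (8.63% higher, 7.02% lower). On the log2 scale the interaction was -1.24 for Gckr (1387203_at), -1.67 and -1.90 for Pklr (1368651_at and 1387263_at), -0.64 for Pfkfb1 (1369467_a_at) and -0.60 for Khk (1387375_at). Macrophage markers also had negative interactions in the same arrays, in 9 of 9 cases, as did 5 of 9 stellate cell and fibroblast markers. Among 7 sinusoidal endothelial markers, 2 had a positive and 2 a negative called interaction. Among 9 lymphocyte and leukocyte markers, 5 cholangiocyte markers and 5 erythroid markers, 1 was positive and 1 negative each. The part of these cell types in the values above was not tested. Of 7 hepatocyte markers 1 had a called interaction, a positive one. These markers averaged 13.92 to 13.99, near the array maxima of 14.68 to 14.74. Changes were called in some comparisons for Apoa1, Fgb and Ahsg, such as Apoa1 after AICAR (-0.38 ± 0.07, limma adjusted p = 0.00963). Alb, Serpina1, Ttr and Apoh were called in no comparison, and whether these can register a change there was not tested. Groups of 2 arrays are too small to look for outlying arrays.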

How the results depend on the processing

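The counts of the 7 genes called were 1 after dexamethasone, 0 after AICAR, 5 after both agents against vehicle, 4 and 5 for the combination against dexamethasone and AICAR, and 4 for the interaction. The trended and robust prior gave 2 after dexamethasone (Pfkfb1 and Ldha), 2 after AICAR (Pfkfb1 and Pfkfb3), 6 for the interaction (adding Ldha, higher, and Pfkfb3, lower) and 5 where both agents were set against dexamethasone (adding Ldha, higher), and gene means over probe sets gave 2 after dexamethasone (Pfkfb1 and Pklr). With 1 array left out the counts ranged from 1 to 1, 0 to 0, 4 to 5, 4 to 4, 5 to 5 and 3 to 4, in the order above. Cyclic loess, centring, the filter on dim probe sets, the fit of only the groups compared (not possible for the interaction) and the replicate block each left these 6 counts as they were. The replicate block gave 1, 0, 5, 4, 5 and 4. The falls of Gckr, Khk and Pklr under the combination kept their call under every alternative run. No called value changed sign. Over all probe sets, calls after AICAR numbered 4011 and dropped to 1447 and 1989 without AICAR replicate 1 and 2 and to 1713 and 1920 without vehicle replicate 1 and 2, so the background shares are themselves uncertain. They were 6048 with the trended and robust prior and 2345 with only the groups compared. Calls after dexamethasone dropped from 5726 to 3738 without vehicle replicate 2, for the combination against dexamethasone from 6233 to 3698 and 3823 without its replicate 1 and 2, and for the interaction from 4858 to 2910, 3041 and 3130 without combination replicate 1, combination replicate 2 and AICAR replicate 1. No scaling moved the median of all probe sets by over 0.1.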

Other observations

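The pentose phosphate pathway, another outlet for glucose phosphate, had 3 of 7 measured genes higher and 2 lower in the combination than in vehicle, where 26.9% of all probe sets were called. The rises were all lost without combination replicate 1 or vehicle replicate 2, and 1 was left without combination replicate 2 or vehicle replicate 1. Tkt, for transketolase, differed by -0.85 ± 0.08 after both agents and -0.47 ± 0.08 after dexamethasone, and Pgd, for phosphogluconate dehydrogenase, by -0.62 ± 0.07 and -0.42 ± 0.07. H6pd, the counterpart of the first pathway enzyme in the endoplasmic reticulum, rose by 0.51 ± 0.07 after dexamethasone and had an interaction of -0.75 ± 0.10 (limma adjusted p = 0.00171).

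Among 9 measured glucose and lactate transporter genes, Slc2a2, for the main hepatocyte glucose transporter, differed by -0.74 ± 0.08 between both agents and dexamethasone alone (limma adjusted p = 3.26e-04). It rose by 0.46 ± 0.08 after dexamethasone. Bsg, which encodes a chaperone of lactate transporters, rose by 0.58 ± 0.07 after AICAR (limma adjusted p = 0.00202) and differed by -0.52 ± 0.07 between the combination and AICAR. Slc16a1, on the same list, went the other way. It was higher in the combination by 0.26 ± 0.08 than after AICAR and by 0.39 ± 0.08 than after dexamethasone. Against AICAR and against dexamethasone 1 of the 9 was called higher and 1 lower each. The shares of all probe sets called were 30.8% and 20.1%. After AICAR 1 rose and 1 fell (12.9% of all probe sets), and after dexamethasone 1 rose and 2 fell (18.4%).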
